A study of Mus musculus with 6 samples.

Results

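The miR-29 family was followed through microRNA arrays of sorted mouse skin and wound cells. Its members were taken by name: every array name whose stem is miR-29a, miR-29b or miR-29c, with both arms of the hairpin and every probe. This gave 6 of 690 names and 16 of 1928 probes, namely mmu-miR-29a-3p, mmu-miR-29b-3p and mmu-miR-29c-3p with 2 probes each (mmu stands for mouse and is mostly left out below), and the opposite strands miR-29a-5p (4 probes), miR-29b-1-5p (4 probes) and miR-29c-5p (2 probes). A probe is called well above background on an array when the scanner software flagged more than 50% of its spots so. To be tested, a name needed 1 such probe throughout a group, on each of its 3 arrays; 4 of the 6 had one, against 222 of all 690.

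There were 6 preparations of total RNA, 1 array each, in 2 groups of 3. All cells came from transgenic SMA-GFP mice, in which the smooth muscle actin promoter drives green fluorescent protein, and all were sorted as CD45- (not blood cells) and CD31- (not endothelium). The first group was the GFP-low population of uninjured dermis (preparations 1, 2 and 5, labelled fibroblast-like cells). The second was the GFP-high population of skin wounds, the myofibroblasts of the study, taken 7 days after injury (preparations 3, 4 and 6). Strain, age, sex and pooling are not given in the sources used here, nor whether preparations came from separate animals, so the spread between preparations may be technical. GFP level and tissue differ at once between the groups, and in sorted populations a smaller share of cells with a miRNA and less of it per cell cannot be told apart.

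MicroRNAs are short RNAs that pair with messenger RNAs through the seed near their 5′ end and lower their translation and stability. The miR-29 family is known for its many extracellular matrix targets, among them the fibrillar collagens, elastin and fibrillin, and its loss accompanies fibrosis in heart, liver, lung, kidney and skin, where TGF-beta lowers it. Messenger RNA was not measured on these arrays, so the targets themselves are not analysed here.

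The mature sequences show what the 3p members share and where they part. All were taken from RefSeq (GRCm38.p6) by name, which matched 6 of the 6 members. Lower case is used throughout, with the seed (bases 2 to 8) in capitals.
miR-29a-3p: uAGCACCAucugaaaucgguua
miR-29b-3p: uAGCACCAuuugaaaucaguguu
miR-29c-3p: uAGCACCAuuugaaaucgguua
The 3 seeds are identical, so a target site pairing with bases 2 to 8 of one, UGGUGCU in the messenger, pairs with those bases of all. No other name had this seed, neither among the 534 array names with a RefSeq sequence nor among all 1679 mature names of the RefSeq table. Counting from 1 at the 5′ end, miR-29c-3p differs from miR-29a-3p by a single substitution, C10U. From miR-29a-3p to miR-29b-3p the changes are C10U, G18A, U21G and A22U, and miR-29b-3p is 1 base longer (23 against 22). Probes for such near-identical RNAs may share signal, and the extent of this was not tested.

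The opposite strands have no seed in common and form no such group, though the seeds of miR-29a-5p and miR-29b-1-5p are close.
miR-29a-5p: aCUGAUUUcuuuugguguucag
miR-29b-1-5p: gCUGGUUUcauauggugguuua
miR-29c-5p: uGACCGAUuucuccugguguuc

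The family comes from paired hairpins on separate chromosomes. On the GRCm38.p6 assembly Mir29a lies at chr6:31062660-31062747 and Mir29b-1 at chr6:31063023-31063093, both on the minus strand, 275 bases apart, within no other annotated gene and between the coding genes Klf14 and Mkln1. Mir29b-2 lies at chr1:195037040-195037120 and Mir29c at chr1:195037547-195037634, both on the plus strand, 426 bases apart, within the long noncoding RNA gene A330023F24Rik between the coding genes Cd34 and Cd46. Mature miR-29b-3p has the same sequence from both loci, so the arrays cannot assign its signal to one of them.

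All 3 of the 3p members were lower in the wound cells than in the skin cells, by 3.37-fold to 5.20-fold. The comparison asks how the family's level differs between dermal cells with little smooth muscle actin promoter activity and wound cells with much of it. Signals below are processed intensities, background-subtracted by the scanner software, and levels are the same signals divided by each array's 75th percentile and taken to log2; a higher level of one miRNA than of another is not read as more of it, since probes differ in brightness.

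mmu-miR-29a-3p had processed signals of 9340, 7881 and 11931 units in skin preparations 1, 2 and 5 and of 1475, 2277 and 2031 in wound preparations 3, 4 and 6. After scaling, its log2 level was 2.65, 2.66 and 2.75 in skin (mean 2.69 ± 0.05, SD, n = 3) and 0.91, 1.06 and 0.84 in wound (0.93 ± 0.11, SD, n = 3). The skin arrays lay close together, and the lowest of them stood far above the highest wound array. The log2 difference, wound minus skin, was -1.75 (SE 0.07, 95% confidence interval -1.94 to -1.57, adjusted p = 1.79e-05 by limma), so the wound level was 29.6% of the skin level, or 3.37-fold lower (2.98 to 3.83).

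mmu-miR-29b-3p, the member encoded at both loci, had processed signals of 1091, 504 and 1237 units in skin and 101, 136 and 106 in wound. Its log2 level was -0.45, -1.30 and -0.52 in skin (mean -0.76 ± 0.48, SD, n = 3) and -2.96, -3.01 and -3.43 in wound (-3.13 ± 0.26, SD, n = 3). Skin preparation 2 stood below the other skin preparations but above every wound preparation, and the groups did not overlap. The difference was -2.38 (SE 0.28, 95% confidence interval -3.11 to -1.65, adjusted p = 0.00116), a wound level of 19.2% of the skin level, or 5.20-fold lower (3.14 to 8.62).

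mmu-miR-29c-3p had processed signals of 1296, 751 and 1473 units in skin and 125, 179 and 162 in wound. Its log2 level was -0.20, -0.73 and -0.27 in skin (mean -0.40 ± 0.29, SD, n = 3) and -2.66, -2.61 and -2.81 in wound (-2.69 ± 0.11, SD, n = 3). Skin preparation 2 was again the lowest of its group, and again no wound array reached a skin array. The difference was -2.29 (SE 0.16, 95% confidence interval -2.71 to -1.88, adjusted p = 0.000147), a wound level of 20.4% of the skin level, or 4.91-fold lower (3.67 to 6.56).

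**Figure D1:**
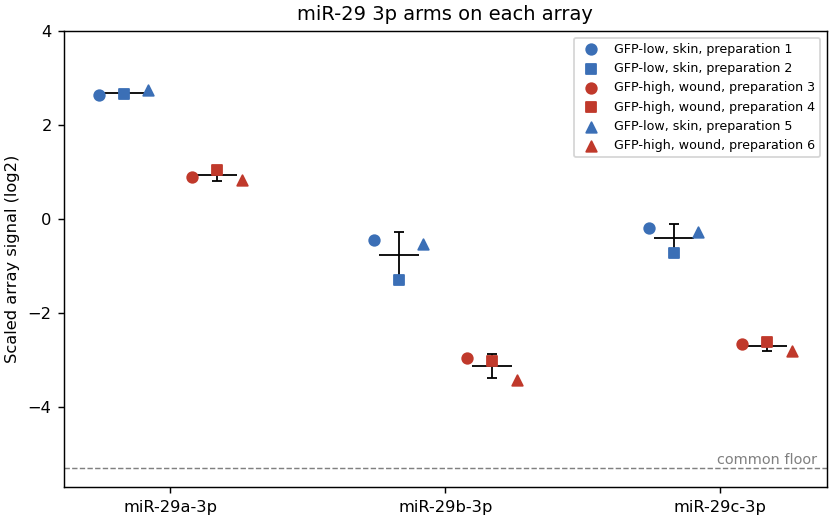
Log2 scaled array signal (y axis) of the 3p members (x axis) on each of the 6 arrays; blue marks are GFP-low skin preparations, red marks GFP-high wound preparations, and the horizontal bar with whiskers is the group mean ± SD (n = 3). Every wound preparation lies below every skin preparation for each member, and skin preparation 2 lies below the other skin preparations for miR-29b-3p and miR-29c-3p.

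Lower levels were not unusual on these arrays. Of the 222 tested miRNAs 20.7% were called lower in wound (46 miRNAs) and 44.1% higher (98 miRNAs) at an adjusted p of 0.05, and in 21.2% all 3 wound arrays lay below all 3 skin arrays. The calls depended on the scaling: with the 75th percentile of all probes 52 were higher and 76 lower, a share of 40.6% higher among the calls in place of 68.1%. Against the median tested miRNA, which stood at 0.38, the differences of miR-29a-3p, miR-29b-3p and miR-29c-3p were -2.13, -2.76 and -2.67. Among the 156 miRNAs well above background on all 6 arrays, miR-29b-3p had the third lowest difference, miR-29c-3p the fifth and miR-29a-3p the ninth. These ranks describe the size of the difference on these arrays, and under the other 4 scalings (all-probe percentile, median, quantile, none) the differences of the 3 members ran from -3.06 to -1.58, each still called.

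**Figure D2:**
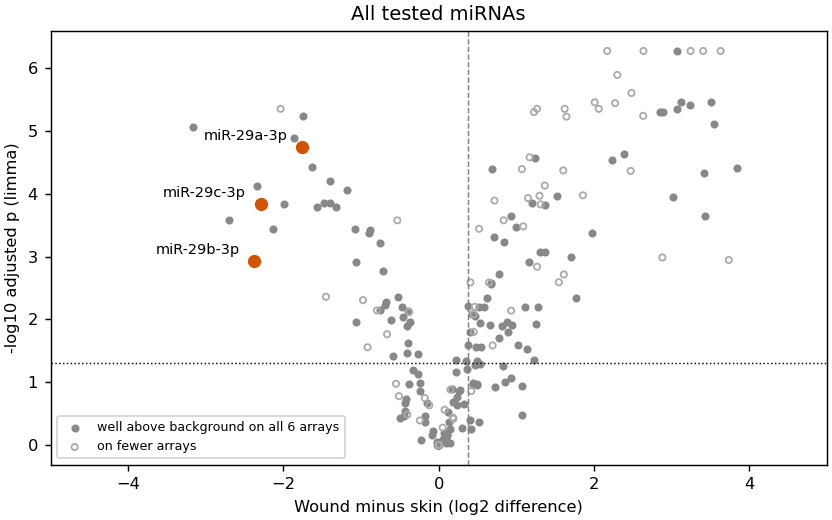
Log2 difference, wound minus skin (x axis), against -log10 of the limma adjusted p (y axis) for the 222 tested miRNAs; filled grey points were well above background on all 6 arrays, open points on fewer, the dashed line is the median difference and the dotted line an adjusted p of 0.05. The 3p members, in orange, lie at -1.75, -2.38 and -2.29, left of the median of 0.38.

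The limits of these calls lie in background correction and labels. With normexp correction (offset 50) in place of the processed signal, the differences of miR-29b-3p and miR-29c-3p were -0.66 (adjusted p = 0.297) and -0.90 (adjusted p = 0.173), no longer past the threshold, while miR-29a-3p stayed called at -1.90 (adjusted p = 0.0227); against that setting's median tested miRNA they were -1.70, -1.93 and -2.93. The direction rests on the array titles, since the column numbers of the authors' deposited table do not follow them. Arrays of one titled group correlated at 0.985 to 0.992 and arrays of different groups at 0.846 to 0.883. Swapped titles would give the same correlations, so these show how the arrays group and not the direction.

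The direction was the same in both rows of the slide. The arrays sat on 1 slide in 2 rows, row 1 with skin preparations 1 and 2 and wound preparation 3, and row 2 with skin preparation 5 and wound preparations 4 and 6. Within row 1 the differences of miR-29a-3p, miR-29b-3p and miR-29c-3p were -1.75, -2.09 and -2.19, and within row 2 they were -1.80, -2.70 and -2.44. Each row has a group with a single array, so these carry no test of their own.

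Cells of other types were looked for through their marker miRNAs. Of the 12 epithelial names 2 were tested, miR-203-3p and miR-205-5p, both keratinocyte miRNAs, and both were well above background on each skin array but on no wound array. Their level was at least 2.32-fold lower in wound for miR-203-3p (mean log2 level -3.85 in skin) and at least 1.60-fold lower for miR-205-5p (-4.39 in skin). Both were highest in skin preparation 2, where miR-29b-3p and miR-29c-3p had their lowest skin level. miR-29a-3p did not have its lowest there (2.65, 2.66 and 2.75 in preparations 1, 2 and 5). This order over the skin arrays was not tested. The summed scaled signal of the epithelial list was 0.0942 to 0.170 in skin and 0 in wound, counting names not well above background as 0, and its 10 other names, the miR-200 family included, were well above background on no array. The part of epithelial RNA in the miR-29 differences was not tested.

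Lists of other cell types gave mixed results. Among 7 blood cell names none was tested: miR-142-3p and miR-223-3p, which mark white blood cells, were well above background on no array, the red cell miRNA miR-451a was so on 2 of 3 skin arrays and no wound array, and the list's summed signal was 0 to 0.0213 in skin and 0 in wound. miR-126-3p, the endothelial miRNA, had a difference of 0.50 (SE 0.22, adjusted p = 0.109), with a summed endothelial signal of 0.0355 to 0.0576 in skin and 0.0519 to 0.0720 in wound. All 5 skeletal muscle names were at background on every array. Of the 3 smooth muscle names 2 were tested, and both were called higher, as were 44.1% of all tested miRNAs. miR-143-3p (1.24) stayed called under the 4 other scalings, while miR-145a-5p (0.65), above background on 2 of 3 skin arrays, stayed called only under the median scaling (0.35) and not under the all-probe percentile, quantile or no scaling (0.10, 0.06 and 0.33). The list had a summed signal of 0.154 to 0.203 in skin and 0.420 to 0.439 in wound. The mesenchymal list, which fits the labelled cells, also holds the 3 smooth muscle names, so miR-143-3p and miR-145a-5p count as higher in both. It had 11 of 12 names tested: 4 were called higher, 2 lower and 5 neither, beside 44.1% higher and 20.7% lower of all tested miRNAs. Those called neither include miR-214-5p and miR-21a-3p, which lay at the floor in both groups. Their differences of 0 therefore do not show an unchanged level, and both enter the list's median. miR-21a-3p was well above background on 0 of 3 skin and 3 of 3 wound arrays. The median difference of the mesenchymal list was 0.22, or -0.16 against the median tested miRNA. Its summed signal was 27.1 to 31.6 in skin and 37.2 to 40.4 in wound, but without miR-21a-5p, which rose by 2.24, it was 23.2 to 27.1 in skin and 18.9 to 20.9 in wound. The members called lower were miR-199a-3p (-0.62, adjusted p = 0.0104) and miR-199b-5p (-0.75, adjusted p = 0.0072). These miRNAs were named after their values were seen. The part of the smooth muscle and mesenchymal shifts in the miR-29 differences was not tested.

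Each probe of the 3p members fell on its own. Of the 402 tested probes 21.6% were called lower, and so were 6 of the 6 probes of the 3p members. Among these, A_54_P1011 of miR-29b-3p was well above background on no wound array, so it could enter the test only through the skin arrays. For miR-29a-3p, probe A_54_P2489 went from 13543, 11562 and 17650 units in skin to 2087, 3172 and 2856 in wound, a log2 difference of -1.82 (SE 0.09, adjusted p = 9.25e-06), and probe A_54_P2488 from 5136, 4199 and 6211 to 863, 1381 and 1206, a difference of -1.60 (SE 0.09, adjusted p = 1.86e-05). Both probes placed the wound arrays below the skin arrays by similar amounts.

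For miR-29c-3p, probes A_54_P2492 and A_54_P2493 had differences of -2.32 (SE 0.17, adjusted p = 5.21e-05) and -2.27 (SE 0.16, adjusted p = 3.85e-05). The first read 1208, 681 and 1323 units in skin against 110, 165 and 143 in wound. The second read 1383, 821 and 1623 units in skin against 139, 194 and 181 in wound, so the low skin preparation 2 appears in both.

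The probes of miR-29b-3p were unequal in brightness. Probe A_54_P1012 read 2017, 944 and 2316 units in skin and 188, 252 and 198 in wound, with a difference of -2.38 (SE 0.26, adjusted p = 0.000326). Probe A_54_P1011 read 166, 64.4 and 159 units in skin, each well above background, and 13.5, 19.3 and 13.0 in wound, none of them so. Its mean log2 level was -3.64 in skin against a wound bound of -5.06, at least 2.68-fold lower (adjusted p = 0.00249 from the fit at the floor). For the bound, each wound array contributes its dimmest signal still flagged above background, or the probe's own where that is brighter. This probe's call was lost with a floor 4 times as high (adjusted p = 0.551) and with all probes tested (adjusted p = 0.0647), and its sign turned under normexp (0.92, adjusted p = 0.203). Without it, on its brightest probe alone, miR-29b-3p still differed by -2.38 (adjusted p = 0.000299).

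**Figure D3:**
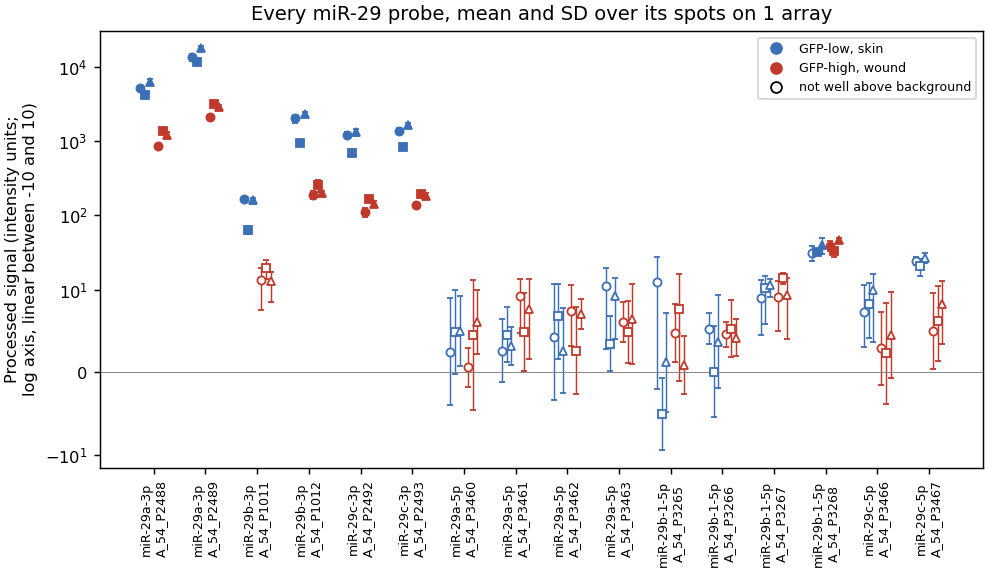
Processed signal in intensity units (y axis, logarithmic above 10 and linear around 0) of all 16 miR-29 probes (x axis) on each array; points are means over the spots of a probe without outlier flags, whiskers their SD, and open points were not well above background. The 6 probes of the 3p members separate skin (blue) from wound (red), and the 10 probes of the 5p members lie near background.

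The opposite strands gave little signal. miR-29a-5p was well above background on no array, with mean processed signals of 5.15, 4.91 and 5.00 units in skin and 5.82, 4.20 and 6.81 in wound. miR-29c-5p also stayed below that mark throughout, but its groups stood apart: 16.0, 14.4 and 18.4 units in skin and 3.96, 4.24 and 6.37 in wound. Agilent's own detection flag per miRNA called miR-29c-5p present on all 3 skin arrays and on 0 of 3 wound arrays, and its brighter probe, A_54_P3467, read 24.6, 20.6 and 26.9 units in skin and 5.03, 6.19 and 8.21 in wound. Neither strand met the rule for testing, so no fold or p is given.

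miR-29b-1-5p was the only 5p member tested, and the mean of its 4 probes lay at the floor on every array, so its difference was 0; with a floor 4 times as low it was 0.83 (adjusted p = 0.00532). A single probe, A_54_P3268, was well above background, on 2 of 3 skin and 3 of 3 wound arrays. It read 31.4, 31.8 and 39.7 units in skin and 38.8, 32.7 and 46.1 in wound, ranges that overlap before scaling. Its scaled difference was 0.62 (SE 0.19, adjusted p = 0.0264), a call that ended, among other settings, under each of the 4 other scalings (0.12 to 0.38) and when any of 5 of the 6 arrays was left out.

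The members' differences were set against each other within arrays, where scaling by a constant cancels. The log2 signal of miR-29c-3p minus that of miR-29a-3p was -2.85, -3.39 and -3.02 in skin and -3.56, -3.67 and -3.65 in wound. The groups did not overlap, and the wound mean was lower by -0.54 (exact permutation p = 0.1, adjusted over the 3 pairs 0.3). For miR-29b-3p minus miR-29a-3p the values were -3.10, -3.97 and -3.27 in skin and -3.87, -4.07 and -4.27 in wound, overlapping, with a mean difference of -0.62 (exact permutation p = 0.2, adjusted 0.3). Between miR-29b-3p and miR-29c-3p the mean difference was -0.08 (exact permutation p = 0.5, adjusted 0.5). With 3 arrays against 3 the two-sided exact test cannot go below 0.1 before or after adjustment, so it could not have called any 1 pair and says nothing on whether the 3 decreases differ in size. All 3 of these pairs changed sign under normexp (to 0.23, 1.01 and 1.24).

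The miRNAs whose profile over the 6 arrays was most like the family's were named by distance. Each profile was centred on its own mean, and the root mean square distance from the mean profile of the 3p members was taken for the 153 other miRNAs well above background on all 6 arrays. The nearest 8 were miR-218-5p at 0.16, miR-26b-5p and miR-100-5p at 0.24 and 0.25, miR-181a-5p at 0.27, miR-101a-3p and miR-23b-3p each at 0.29, and miR-195a-5p and miR-26a-5p each at 0.34. The median distance of all 153 was 1.27. The members themselves stood 0.24 (miR-29a-3p), 0.18 (miR-29b-3p) and 0.08 (miR-29c-3p) from their mean, so miR-218-5p was nearer to it than miR-29a-3p was.

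Their differences were of the family's order, since the distance selects for this. miR-218-5p had levels of -1.08, -1.29 and -0.96 in skin and -3.43, -2.87 and -3.43 in wound, and miR-26b-5p had 0.47, 0.44 and 0.55 against -1.30, -1.18 and -1.31. The 8 differences ran from -2.70 for miR-101a-3p to -1.48 for miR-195a-5p. Of the 7 with a RefSeq sequence 0 have the miR-29 seed, which follows from the search above, where no name outside the family had it. The same 8 were the nearest under the all-probe percentile, the median scaling and no scaling, 6 of them under quantile normalization and 4 under normexp.

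**Figure D4:**
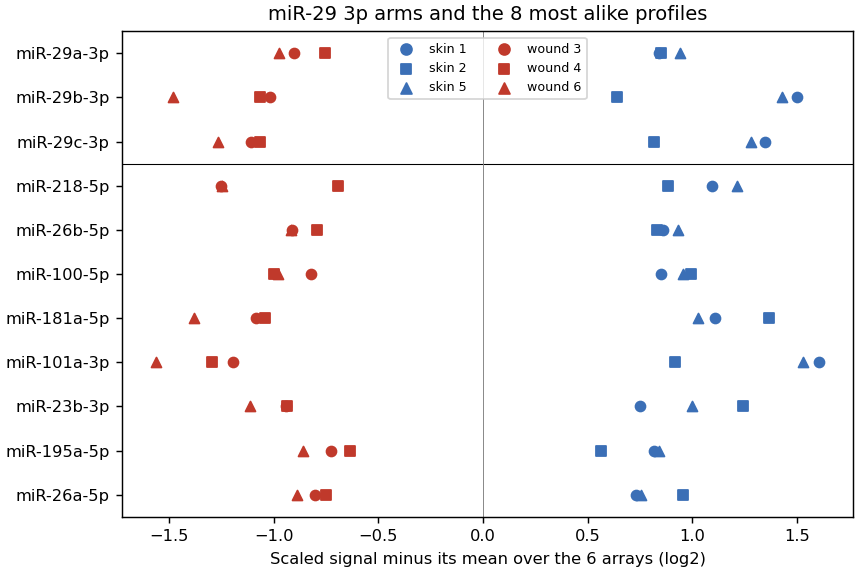
Log2 scaled signal minus its mean over the 6 arrays (x axis) for the 3p members and, below the line, the 8 miRNAs with the nearest profiles (y axis, nearest first); each mark is 1 array, blue for skin and red for wound. In every row the skin arrays lie to the right of the wound arrays, and miR-101a-3p is among those that, like miR-29b-3p and miR-29c-3p, have their lowest skin value in preparation 2.

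Other miRNAs known to restrain fibrosis were counted from a list that leaves the family out. The list was written with earlier results of these data known, so the counts only describe these arrays. Of 57 array names on it 24 were tested, and 14 were lower in wound, 5 higher and 5 not called, against 20.7% lower and 44.1% higher among all tested miRNAs. The 14 include miR-203-3p, a keratinocyte marker above, which was well above background on no wound array. The median difference of the 24 was -0.44, beside 0.38 for all tested, and over the 4 other scalings 15 to 18 were lower and 2 to 5 higher, where 24.3% to 34.2% of all tested miRNAs were lower and 23.4% to 31.5% higher. miR-26a-5p and miR-26b-5p, which share a seed with each other and are known to target collagen and TGF-beta pathway messengers, fell by 1.63 (SE 0.08, adjusted p = 3.69e-05) and 1.75 (SE 0.05, adjusted p = 5.73e-06). The 4 members with the smallest p also held miRNAs that rose: miR-18a-5p, of the miR-17-92 cluster, whose known targets include CCN2, by 1.62 and miR-335-5p by 2.47. Both were well above background on 1 of 3 skin arrays and at the floor in scaled level on all skin arrays. Their skin levels had no spread of their own, so the fold depends on the floor and the fit's SE and p are not given. With a floor 4 times as high neither was called (differences of 0 and 0.47).

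The list of miRNAs known to promote fibrosis, or to rise in it, went mostly the other way. This list too was written with earlier results of these data known, so its counts are no independent support. Of 42 array names 27 were tested, of which 17 were higher, 4 lower and 6 not called, against the same 44.1% higher and 20.7% lower among all tested, and with a median difference of 0.65 beside 0.38. Over the 4 other scalings 12 to 14 were higher and 5 to 6 lower, beside the shares given above for those scalings. When each miRNA had to be above background on every array, 10 of the list were higher, and 37.8% of all tested there. How many of the list were tested in that setting is not given here, so the 10 cannot be set against that share. Among the 4 with the smallest p, miR-382-5p, well above background on all 6 arrays, rose by 3.52 (SE 0.08, adjusted p = 3.49e-06). Its skin level was at the floor of -5.30 in preparation 5 and close to it in preparations 1 and 2 (-5.15 and -5.22). The floor thus limits the skin spread behind this SE and p. Raising the floor 4-fold cut the difference to 1.59, while lowering it 4-fold left 3.52, both still called. miR-154-3p and miR-503-5p, seen above background on every wound array and no skin array, were higher in wound by at least 12.0-fold and at least 10.7-fold (mean log2 levels -1.89 and -2.06, against a skin bound of -5.48). Their skin levels all sat at the floor, with no spread of their own, so the fit's p is not given. miR-132-3p, above background on 2 of 3 skin arrays but at the floor in scaled level, rose by 2.01, and its p is left out for the same reason. With a floor 4 times as high its difference was 0.04 and not called. Of the 27 tested, 6 were well above background on no skin array, and such members could enter the test only through the wound arrays; the corresponding number in the first list was 2 of 24 on no wound array.

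**Figure D5:**
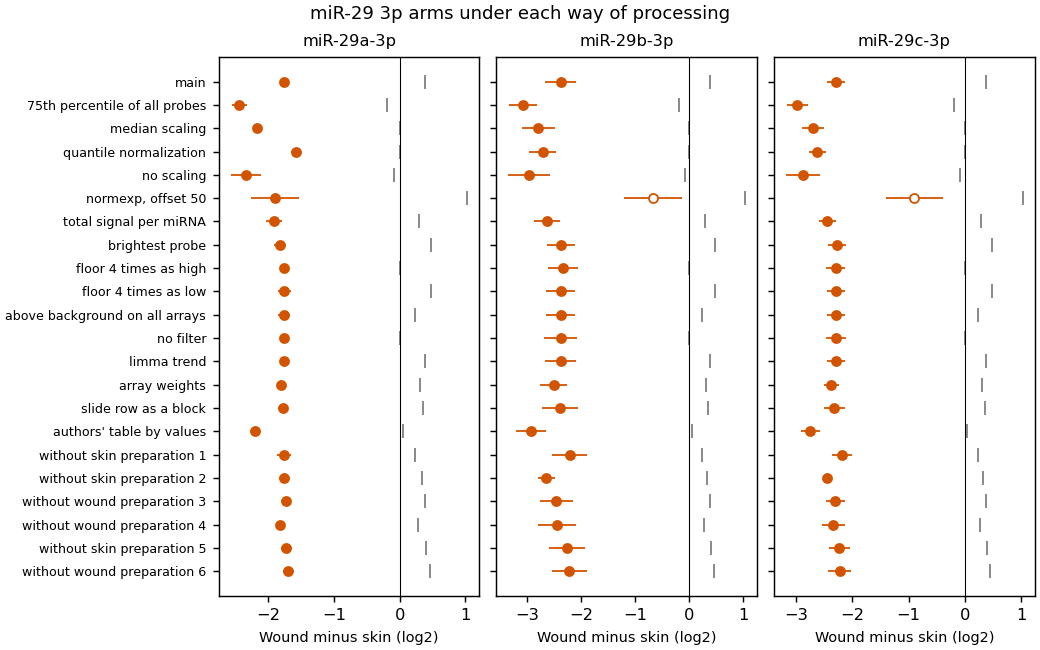
Log2 difference, wound minus skin (x axis), of each 3p member under the ways of processing the arrays and with each array left out (y axis), leaving out the authors' table taken by its column numbers; whiskers are the SE, filled points have a limma adjusted p under 0.05, and grey ticks give the median of all tested miRNAs under that setting. All points shown lie below 0, and the open points of miR-29b-3p and miR-29c-3p are those of normexp, at -0.66 and -0.90.

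The decreases were present without any 1 array. With each array left out in turn the difference ran from -1.82 to -1.69 for miR-29a-3p, from -2.64 to -2.21 for miR-29b-3p and from -2.45 to -2.18 for miR-29c-3p, each called every time (highest adjusted p = 0.00805). The largest values of miR-29b-3p and miR-29c-3p, -2.64 and -2.45, came without skin preparation 2. Unscaled signals gave -2.34, -2.96 and -2.88 for miR-29a-3p, miR-29b-3p and miR-29c-3p (adjusted p = 0.00111, 0.00251 and 0.00124); the 75th percentile used for scaling was 1244 to 1772 units on skin arrays and 786 to 1136 on wound arrays.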

How the data were processed

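Per the labels, total RNA of 6 preparations was Cy3-labelled with an Agilent miRNA kit; the series' design text describes messenger RNA arrays, while the files hold miRNA names. Per the file headers, spot intensity was read with Feature Extraction 10.7.3.1. A second deposited file holds log2 values per miRNA; how the authors made it is not stated. Its 6 columns equal the log2 total signal of 1 array each minus a constant (within 0.001, over 656 of 691 rows), with medians of -12.53 to -11.76, and no column equals the array of its own number, so the scanner files gave the main values.

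The processed signal of each probe (mean of its spots, outlier flags left out) was scaled by the 75th percentile of each array, computed from the probes that were well above background on every array. A name's level is the linear mean of its probes, held at or above 0.0253 (-5.30 in log2; each array's lowest scaled signal still above background was found, and their median used) before log2, which makes differences of dim miRNAs smaller. Groups were compared two-sided in limma 3.58.1 under R 4.3.3 (lmFit, then eBayes), with Benjamini-Hochberg adjustment over all tested miRNAs or probes at 0.05. The limma step was also run on simulated normal data that had no floor and no detection filter. That run does not cover miRNAs at the floor. Pairs of members were compared by exact permutation. A group seen above background on none of its arrays gives only a bound, written as "at least". The number of arrays limits the precision. Between 187 and 233 names were well above background on an array; the median local background was 49.0 to 55.5 units, 2.14% to 3.11% of spots were outliers and 0 were saturated.

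Named miRNAs are the family, the 8 nearest profiles, the 4 smallest p of the anti-fibrotic and pro-fibrotic lists and 5 markers; both lists came from general knowledge, and a name belongs by its stem, so both arms count. Members, lists and tests were chosen with earlier results of these data known. Sequences and coordinates are RefSeq's, GRCm38.p6; the arrays carry no coordinates. Alternatives covered scaling, background correction, total signal, probe summary, floor, filter, limma options, slide row, each array left out and the authors' table.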

Additional observations from a re-analysis of the deposited data

How the results depend on the processing

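The differences of miR-29a-3p, miR-29b-3p and miR-29c-3p kept direction and call under all 15 alternatives that use the titles' groups and with each array left out (-1.82 to -1.69, -2.64 to -2.21 and -2.45 to -2.18), except under normexp, where miR-29b-3p was -0.66 and miR-29c-3p -0.90, neither called. Also under normexp the within-array pairs were 1.24 (miR-29b-3p minus miR-29a-3p), 1.01 (miR-29c-3p minus miR-29a-3p) and 0.23 (miR-29b-3p minus miR-29c-3p), miR-181a-5p was 0.32 and probe A_54_P1011 0.92, all turned in sign; calls were 16 higher and 7 lower, 0 and 1 in the anti-fibrotic list, 6 and 1 in the pro-fibrotic list. Of all tested miRNAs 7.2% were higher and 3.2% lower under normexp. The cause of these changes under normexp was not tested. With arrays left out the pairs ran from -0.88 to -0.45, from -0.69 to -0.42 and from -0.19 to 0.0036, the last turned without wound preparation 6.

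Taken by column number, the authors' deposited table put arrays of different titled groups together, so that the differences were 0.78, 1.24 and 1.14 and the pairs 0.46, 0.37 and 0.094, with 0 miRNAs called by limma in either direction or list. Matched by values, an alternative chosen after seeing the data, it gave -2.20, -2.93 and -2.74, each called, and 3 anti-fibrotic members higher. Its 202 rows with a tested name were compared, and matched by values 33.2% of them were higher and 31.7% lower. How many of these rows belong to the anti-fibrotic list is not given here.

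Calls of higher miRNAs were 52 with the all-probe percentile (76 lower), 54 without scaling, 44 with the higher floor and 59 when only the 156 miRNAs above background on every array were tested. The anti-fibrotic list had 3, 2, 2 and 3 higher under these, and the pro-fibrotic list 10 higher under each of the last pair. Of all tested miRNAs 23.4%, 24.3%, 19.8% and 37.8% were higher under the same settings. How many list members were tested in the last setting is not given here, so its counts cannot be set against that share. Leaving out arrays gave 83 to 92 higher and 38 to 49 lower. The median of all tested miRNAs moved by -0.57, -0.38, -0.38 and -0.46 under the all-probe percentile, median, quantile and no scaling. Signals near background limit the 5p members and probe A_54_P1011. No paired analysis was possible because the groups share no replicate numbers.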

Other observations

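Skin preparation 2 split the miRNAs of this profile. It was the lowest skin array for miR-29b-3p and miR-29c-3p and for 4 of the 8 nearest miRNAs: miR-101a-3p (a log2 level of -1.86 against -1.17 and -1.25 in preparations 1 and 5), miR-218-5p (-1.29 against -1.08 and -0.96), miR-195a-5p (1.67 against 1.92 and 1.94) and, narrowly, miR-26b-5p (0.44 against 0.47 and 0.55). It was the highest skin array for the other 4: miR-23b-3p (1.07 against 0.58 and 0.82), miR-181a-5p (-2.13 against -2.38 and -2.47), miR-26a-5p (2.08 against 1.86 and 1.88) and miR-100-5p (-0.23 against -0.38 and -0.27). In all of them the wound arrays lay below every skin array, so the split concerns levels within skin only. It was noticed after the values were seen, and no test was made.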
